A study of Mus musculus with 10 samples.

Results

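Transcripts of large ribosomal subunit assembly factors were examined in 4 MYC/SMARCA4 tumors, 3 SHH MB (sonic hedgehog medulloblastoma) and 3 P7 cerebella of mice. The set holds 43 genes, taken by their symbols from a list of proteins that build the large subunit in the nucleolus, of 50559 genes counted and 29952 genes tested. All 43 were present in the files, and all 43 passed the filter on low counts. MYC/SMARCA4 tumors grew after granule cell precursors (GCPs) of Math1-creERT2::Smarca4fl/fl pups, injected on postnatal day 3 with 0.4 mg of tamoxifen and transduced with a lentivirus carrying murine Myc and GFP behind a CMV promoter, were transplanted unsorted into the cerebellum of CD1nu/nu mice. These tumors were taken at 112, 96, 89 and 79 days (tumors 1 to 4). P7 cerebella were whole cerebella of Math1-creERT2::Smarca4fl/fl mice at 7 days, and they had received the same tamoxifen dose on the same day, so that the Smarca4 alleles can be recombined in their GCPs too. SHH MB came from Math1-cre::Smofl/wt mice, labelled as 7 days old, with no Smarca4 allele among the labels. The Math1 promoter restricts Cre to granule cell precursors and a few related lineages, so in whole cerebella the other cell types keep Smarca4. The transplanted cells were not selected for the virus, and a tumor punch can hold tissue of the host. RNA came from punches of formalin-fixed, paraffin-embedded (FFPE) tissue, and in such bulk samples fewer cells of a type and less RNA per cell cannot be told apart.

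The large (60S) ribosomal subunit is assembled around ribosomal RNA (rRNA) that is transcribed in the nucleolus, cut out of a long precursor and modified while ribosomal proteins join it. Assembly factors bind the particle for a time, place or remodel a part of it and leave. GTPases, ATPases and RNA helicases drive these steps, and late factors accompany the particle through the nuclear pore into the cytoplasm. MYC is a transcription factor that binds E-boxes, with CACGTG as the canonical form, and many ribosome biogenesis genes are among its known targets. In the cerebellum, GCPs are among the cells that divide after birth, and SHH MB arises from GCPs.

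To show promoters of members in which the canonical E-box lies upstream of the start, sequence is printed for the 3 members with CACGTG before both the RefSeq and the GENCODE start. Sequences are RefSeq promoter sequence, each found once on its chromosome in GRCm39 and ended at the GENCODE start where that came first, and the capitals mark the motif, which reads the same on both strands.
Nmd3, chr3:69629229-69629281, plus strand: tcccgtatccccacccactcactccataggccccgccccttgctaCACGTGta
Nop2, chr6:125108741-125108815, plus strand: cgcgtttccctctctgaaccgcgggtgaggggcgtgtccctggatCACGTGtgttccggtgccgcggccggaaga
Pelp1, chr11:70301036-70301107, minus strand: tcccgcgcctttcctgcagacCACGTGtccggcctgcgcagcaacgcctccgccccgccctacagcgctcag
Counted from the RefSeq start, the motif began at position -60 in Nop2, -114 in Nmd3 and -229 in Pelp1, and counted from the GENCODE start at -30, -8 and -224. Rpf2 has 2 RefSeq starts, with the motif at -26 from one and 34 bases after the other, and it lay 113 bases after the GENCODE start, so it is not shown. Of the 36 members in the promoter table, 7 held CACGTG between 250 bases before and 50 bases after the start (19.4%). It was 8.09% of the 27025 genes in the table, and 8.91% of its 17492 protein-coding genes. Counting only the bases before a RefSeq start left 4 of 36 (11.1%), Rpf2 among them, compared with 6.86% of all genes and 7.61% of protein-coding genes. Of 31 other 60S assembly and pre-rRNA processing genes in the table, 6 held the motif in the whole window and 0 before the start. The remaining members with a match were Tex10, Pes1 and Nle1. The 7 members with no entry were Gnl3l, Rpf1, Rrs1, Npm1, Gnl2, Mak16 and Bop1. Among the matching members, Nop2, Nmd3, Tex10, Pes1 and Nle1 were called higher in tumors than in P7 cerebella and Rpf2 and Pelp1 were not. Of all 43 members 30 were called higher in this comparison, as were 3.99% of all genes tested. A link between motif and call was not tested.

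Libraries held between 5663491 and 9352109 counts, and every library had at least 21 counts on each member. Values are given as log2 CPM (library-size-scaled counts with TMM factors and a prior count of 2). Myc checked the labels of the tumors, with 7.25, 8.52, 10.63 and 9.99 log2 CPM in tumors 1 to 4, 3.73 to 3.87 in P7 cerebella and 5.09 to 5.52 in SHH MB. It was called higher against P7 cerebella (log2 fold change 5.85 ± 0.75 (SE), adjusted p = 0.00194) and against SHH MB (4.31 ± 0.69, adjusted p = 0.00428). Smarca4 lay at 7.71, 7.93, 7.09 and 7.90 log2 CPM in tumors 1 to 4, with 7.79 to 8.14 in P7 cerebella (log2 fold change -0.30 ± 0.28, adjusted p = 0.495) and 8.94 to 9.20 in SHH MB (-1.39 ± 0.28, adjusted p = 0.0157). Reads were counted over the whole gene, so transcripts of recombined Smarca4 alleles can count as well.

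Tumor 1 stood apart from the other tumors in marker genes. Its summed CPM of the 10 proliferation genes was 128, compared with 1864 to 2043 in tumors 2 to 4, 812 to 1117 in P7 cerebella and 2171 to 2645 in SHH MB. For the 6 markers of mature granule neurons the sum was 3753 in tumor 1, 1363, 186 and 772 in tumors 2 to 4, 346 to 410 in P7 cerebella and 110 to 152 in SHH MB. Markers of Purkinje cells (6 genes) summed to 11332 in tumor 1, 338 to 2672 in the other tumors, 1174 to 1311 in P7 cerebella and 319 to 582 in SHH MB. Markers of myelinating oligodendrocytes (6 genes) summed to 3909, 104 to 779, 919 to 1098 and 111 to 373 in the same order. The 6 genes of the granule cell lineage summed to 600 to 1894 in tumors, 1708 to 1928 in P7 cerebella and 1754 to 2104 in SHH MB, and no marker gene was at 0 in any library. Astrocyte and Bergmann glia markers (6 genes) summed to 105 to 993 in tumors, 1567 to 1622 in P7 cerebella and 815 to 921 in SHH MB, and choroid plexus markers (5 genes) to 20.7 to 125, 575 to 1167 and 315 to 1301. Markers of microglia, endothelium, fibroblasts with meninges and erythrocytes summed to between 18.7 and 346 in tumors, 59.4 and 332 in P7 cerebella and 37.9 and 364 in SHH MB. The share of counts on mitochondrial and rRNA-like genes was 7.94% in tumor 1, 4.25% to 4.47% in the other tumors and 1.79% to 2.37% in the remaining libraries. The part of these differences in the results was not tested, and results are therefore given with and without tumor 1.

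Compared with P7 cerebella, the assembly factors were higher in MYC/SMARCA4 tumors as a group of genes that reaches from early nucleolar to late export factors. The log2 fold change was above 0 for all 43 members, from 0.60 for Nsa2 to 2.67 for Gnl3, with a median of 1.45 (the median of all genes tested was -0.05). Of the 43, 30 were called higher and 0 lower (adjusted p of at most 0.05, edgeR), where 3.99% of all genes tested were called higher. For 36 members every tumor lay above every P7 cerebellum, which held for 10.3% of all genes. Without tumor 1, 39 members were called higher (11.1% of all genes), the median was 1.66, and in 41 members tumors 2 to 4 all lay above the P7 cerebella (17.6% of all genes). The number called rested on the P7 libraries as well. It was 1 of 43 without P7 cerebellum 2, where 0.100% of all genes were called higher, 3 without P7 cerebellum 1 and 1 without P7 cerebellum 3, while the median log2 fold change of the members stayed between 1.32 and 1.54. Without tumor 2 it was 25, without tumor 3 it was 39, as without tumor 1, and without tumor 4 it was 13. In a fit of only these 2 groups it was 1. Over all genes, 1194 were called higher with all libraries, 73 without P7 cerebellum 1 and 39 without P7 cerebellum 3. Over all genes, 528 were called higher without tumor 2, 3381 without tumor 3, 535 without tumor 4 and 58 in the fit of only these 2 groups. Tumors were 79 to 112 days old and P7 cerebella 7 days, so age and group cannot be told apart.

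**Figure D1:**
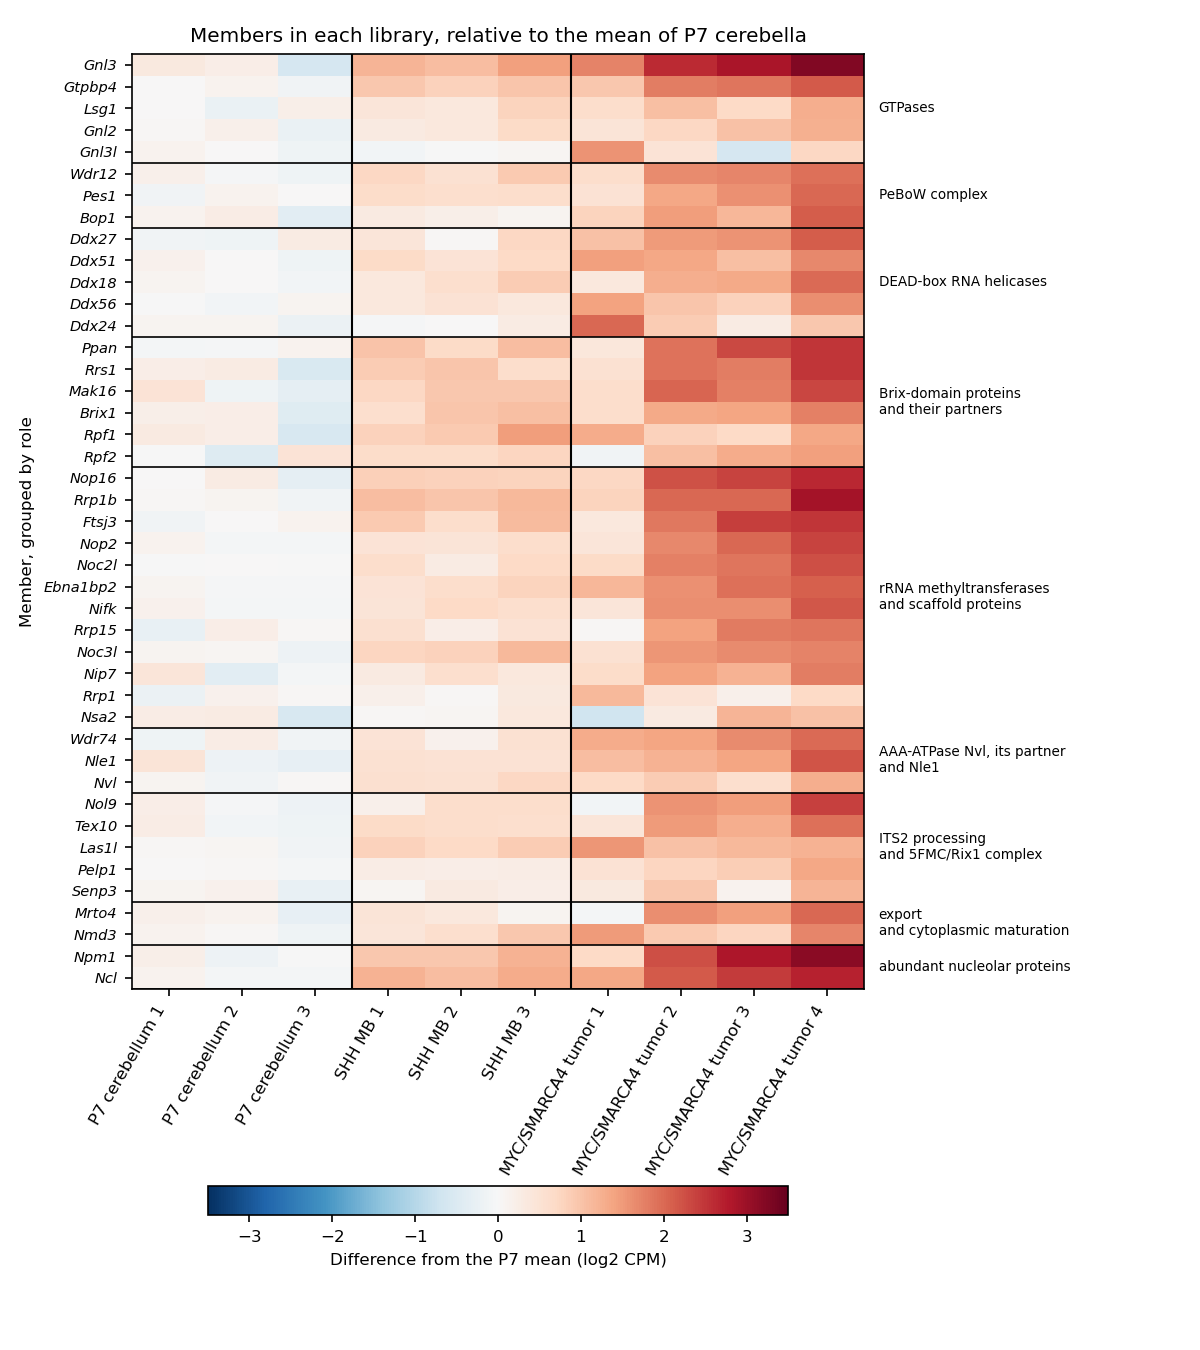
Difference of each of the 43 members from its mean in P7 cerebella (log2 CPM, color scale centered on 0) in the 10 libraries, with members grouped by role and sorted by log2 fold change within a role. Tumors 2 to 4 are red in nearly all rows, and Gnl3l is blue in tumor 3. Tumor 1 is above every SHH MB in 17 members and below every SHH MB in 18 (shares of all genes not computed).

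GTPases that act on the particle in the nucleolus and later in the cytoplasm differed widely from each other. Gnl3 (nucleostemin, a nucleolar GTPase of proliferating and stem cells) lay at 5.93, 6.79, 7.04 and 7.42 log2 CPM in tumors 1 to 4, at 4.53, 4.41 and 3.60 in P7 cerebella 1 to 3 and at 5.38, 5.27 and 5.61 in SHH MB 1 to 3. Every tumor was above every SHH MB, and every SHH MB was above every P7 cerebellum. The fold change of Gnl3 against P7 cerebella was 6.37-fold (log2 2.67 ± 0.38 (SE), adjusted p = 0.00319), the largest of all members, and without tumor 1 it was 2.90 on the log2 scale. Gnl3 spans 30734389 to 30741364 on chromosome 14 (minus strand, GRCm39), and the small nucleolar RNA (snoRNA) genes Snord19 and Snord69 lie inside it, as does a part of its opposite-strand neighbours Glt8d1 and Pbrm1. Gtpbp4, which joins early particles, had a log2 fold change of 1.76 ± 0.30 (adjusted p = 0.00842), and 7 pseudogenes by name can share its reads. Gnl2, which acts before export, and Lsg1, which releases the export adaptor Nmd3 in the cytoplasm, had 0.89 ± 0.26 and 0.94 ± 0.27 (adjusted p = 0.0617 and 0.0553). Gnl3l, the close relative of Gnl3, showed another pattern. It lay at 8.23, 7.15, 6.08 and 7.39 log2 CPM in tumors 1 to 4, at 6.79, 6.68 and 6.53 in P7 cerebella and at 6.58, 6.66 and 6.74 in SHH MB. Tumor 1 was the highest library and tumor 3 the lowest of all 10, so the groups overlapped (log2 fold change 0.73 ± 0.39, adjusted p = 0.254).

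PES1, BOP1 and WDR12 form the PeBoW complex, which is needed for the processing of the rRNA of the large subunit. All 3 genes were called higher in tumors than in P7 cerebella, with log2 fold changes of 1.47 for Pes1, 1.45 for Bop1 and 1.56 for Wdr12. Wdr12 lay at 5.37, 6.41, 6.48 and 6.70 log2 CPM in tumors 1 to 4, at 4.96, 4.72 and 4.62 in P7 cerebella and at 5.50, 5.30 and 5.68 in SHH MB. Here tumor 1 lay within the range of SHH MB. Bop1 lay at 5.57, 6.25, 5.93 and 6.90 in tumors, at 4.90, 5.04 and 4.41 in P7 cerebella and at 5.09, 4.99 and 4.89 in SHH MB. Every tumor was above every other library for Bop1, while P7 cerebella and SHH MB overlapped. Bop1 overlaps Hsf1 and Mroh1 on the opposite strand, and reads of overlapping genes cannot be told apart where counting ignores the strand.

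DEAD-box RNA helicases unwind RNA in the particle. Of 5, Ddx27, Ddx51, Ddx18 and Ddx56 were called higher, with log2 fold changes of 1.25 to 1.60, and Ddx24 was not. Ddx27, which works with the PeBoW complex, lay at 5.85, 6.29, 6.38 and 6.92 log2 CPM in tumors 1 to 4, at 4.69, 4.65 and 5.09 in P7 cerebella and at 5.24, 4.85 and 5.53 in SHH MB (3.03-fold against P7 cerebella, adjusted p = 0.0136). All tumors lay above all other libraries. Ddx24 lay at 8.11, 6.99, 6.39 and 7.04 in tumors, at 6.20, 6.20 and 5.90 in P7 cerebella and at 6.07, 6.11 and 6.40 in SHH MB. Its highest value was in tumor 1 and its lowest tumor value in tumor 3, as for Gnl3l (log2 fold change 1.17 ± 0.36, adjusted p = 0.0752, and 0.74 with adjusted p = 0.047 without tumor 1).

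Brix-domain proteins bind rRNA, and together with their partners they include RRS1 and RPF2, which load the 5S particle. Ppan, Rrs1, Mak16 and Brix1 were called higher, with log2 fold changes of 1.98, 1.81, 1.80 and 1.31. Ppan lay at 4.47, 5.95, 6.36 and 6.55 log2 CPM in tumors 1 to 4, at 3.98, 4.02 and 4.17 in P7 cerebella and at 5.05, 4.72 and 5.14 in SHH MB. Tumor 1 was above the P7 cerebella and below the SHH MB. Rpf2 had 3.38, 4.54, 4.80 and 4.94 in tumors, 3.47, 3.04 and 3.98 in P7 cerebella and 4.13, 4.15 and 4.25 in SHH MB. Tumor 1 lay among the P7 cerebella (log2 fold change 1.00 ± 0.37, adjusted p = 0.116). Rpf1 stood out against SHH MB, with 5.32, 4.83, 4.72 and 5.37 in tumors, 4.34, 4.25 and 3.46 in P7 cerebella and 4.81, 4.92 and 5.47 in SHH MB. Tumors and SHH MB overlapped for Rpf1, and both lay above the P7 cerebella.

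The rRNA methyltransferases and scaffold proteins were the largest group, with 10 of 12 called higher and a median log2 fold change of 1.68. Nop16 (2.16 ± 0.40, adjusted p = 0.0116), Rrp1b (2.12 ± 0.40, adjusted p = 0.0134) and Ftsj3, a methyltransferase of rRNA ribose (2.00 ± 0.42, adjusted p = 0.0197), changed most. Nop16 lay at 4.06, 5.55, 5.70 and 5.95 log2 CPM in tumors 1 to 4, at 3.35, 3.62 and 3.00 in P7 cerebella and at 4.16, 4.13 and 4.10 in SHH MB. Tumor 1 was just below the SHH MB, which differed little from each other. Nop2, a methyltransferase of rRNA cytosine, rose 3.47-fold, and Ebna1bp2, Noc2l, Nifk, Rrp15, Noc3l and Nip7 rose between 2.46-fold and 3.37-fold. Rrp1b lay at 5.31, 6.55, 6.56 and 7.44 in tumors, at 4.59, 4.63 and 4.41 in P7 cerebella and at 5.61, 5.52 and 5.66 in SHH MB, with the highest value in tumor 4. The members not called were Rrp1 and Nsa2. Rrp1, the relative of Rrp1b, lay at 7.88, 7.24, 6.93 and 7.44 in tumors, at 6.55, 6.91 and 6.80 in P7 cerebella and at 6.92, 6.80 and 7.08 in SHH MB, with the highest value in tumor 1 (log2 fold change 0.65 ± 0.27, adjusted p = 0.162). Nsa2 lay at 2.45, 3.47, 4.36 and 4.18 in tumors, at 3.43, 3.44 and 2.61 in P7 cerebella and at 3.19, 3.22 and 3.52 in SHH MB, so that tumor 1 was the lowest library of all 10 (0.60 ± 0.42, adjusted p = 0.368). Nsa2 also has 2 pseudogenes by name, which can share its reads.

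NVL is an AAA-ATPase that strips WDR74 from nucleolar particles, and NLE1 is a substrate of the later ATPase MDN1. Wdr74 and Nle1 were called higher (log2 fold change 1.62 ± 0.28, adjusted p = 0.00898 and 1.53 ± 0.34, adjusted p = 0.0239), and Nvl had 0.89 ± 0.25 (adjusted p = 0.0532). Wdr74 lay at 4.86, 4.95, 5.21 and 5.55 log2 CPM in tumors 1 to 4, at 3.42, 3.82 and 3.44 in P7 cerebella and at 4.04, 3.70 and 4.09 in SHH MB, with all tumors above all other libraries. Nvl lay at 6.74, 6.94, 6.62 and 7.32 in tumors, at 6.13, 5.91 and 6.08 in P7 cerebella and at 6.61, 6.56 and 6.77 in SHH MB. For Nvl the tumors lay above the P7 cerebella but not apart from SHH MB.

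LAS1L and NOL9 remove the internal spacer (ITS2) between rRNAs, and PELP1, TEX10 and SENP3 belong to the complex that stays with them and checks the particle. Las1l and Tex10 were called higher (log2 fold changes 1.24 and 1.38), and Nol9, Pelp1 and Senp3 were not. Nol9 had the widest range of all members among tumors, with 4.59, 6.26, 6.16 and 7.08 log2 CPM in tumors 1 to 4, 4.92, 4.64 and 4.49 in P7 cerebella and 4.87, 5.30 and 5.31 in SHH MB. Tumor 1 was within the range of P7 cerebella (log2 fold change 1.58 ± 0.44, adjusted p = 0.0528). Senp3, the SUMO protease that acts on PELP1, lay at 5.69, 6.28, 5.47 and 6.52 in tumors, at 5.44, 5.49 and 5.09 in P7 cerebella and at 5.40, 5.65 and 5.56 in SHH MB. Tumor 3 lay within the range of both other groups for Senp3 (0.71 ± 0.29, adjusted p = 0.152).

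NMD3 is the adaptor that carries the large subunit through the pore, and MRTO4 holds the place of the ribosomal stalk until the cytoplasm. Nmd3 was called higher (log2 fold change 1.28 ± 0.29, adjusted p = 0.0259), with 5.63, 5.06, 4.89 and 5.86 log2 CPM in tumors 1 to 4, 4.25, 4.18 and 3.98 in P7 cerebella and 4.55, 4.72 and 5.07 in SHH MB. Mrto4 lay at 3.38, 5.08, 4.86 and 5.45 in tumors, at 3.61, 3.57 and 3.14 in P7 cerebella and at 3.88, 3.81 and 3.52 in SHH MB. Tumor 1 was within the range of P7 cerebella (1.44 ± 0.40, adjusted p = 0.0528), and 2 pseudogenes by name can share reads with Mrto4.

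The abundant nucleolar proteins nucleophosmin (Npm1) and nucleolin (Ncl), which act as chaperones of rRNA and ribosomal proteins, followed Gnl3 in size of change. Npm1 lay at 6.95, 8.50, 9.07 and 9.41 log2 CPM in tumors 1 to 4, at 6.45, 6.07 and 6.23 in P7 cerebella and at 7.18, 7.20 and 7.46 in SHH MB (5.59-fold against P7 cerebella, log2 2.48 ± 0.48, adjusted p = 0.0136). Tumor 1 was above every P7 cerebellum and below every SHH MB. Ncl lay at 9.08, 9.87, 10.16 and 10.42 in tumors, at 7.86, 7.66 and 7.66 in P7 cerebella and at 8.93, 8.81 and 9.01 in SHH MB (4.71-fold, log2 2.23 ± 0.36, adjusted p = 0.00633). For Ncl all tumors exceeded all SHH MB, which exceeded all P7 cerebella. Npm1 spans 33100281 to 33113267 on chromosome 11 and Ncl 86272441 to 86287208 on chromosome 1 (minus strand, GRCm39). The snoRNA genes Snora75 and Snord82 lie inside Ncl. Per kilobase of exon, Ncl was the most abundant member in tumors (97.1 ± 34.2 RPKM, SD, n = 4), followed by Npm1 (75.3 ± 42.4) and Rrp1 (48.1 ± 13.6), and Npm1 overlapped with both neighbours within the SD. In P7 cerebella the order began with Rrp1 (30.5 ± 3.81, n = 3), Ncl (20.6 ± 1.64) and Gnl3l (14.8 ± 1.32). With the length of the canonical transcript, Npm1 came before Ncl in tumors (256 ± 144 and 120 ± 42.4 RPKM).

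**Figure D2:**
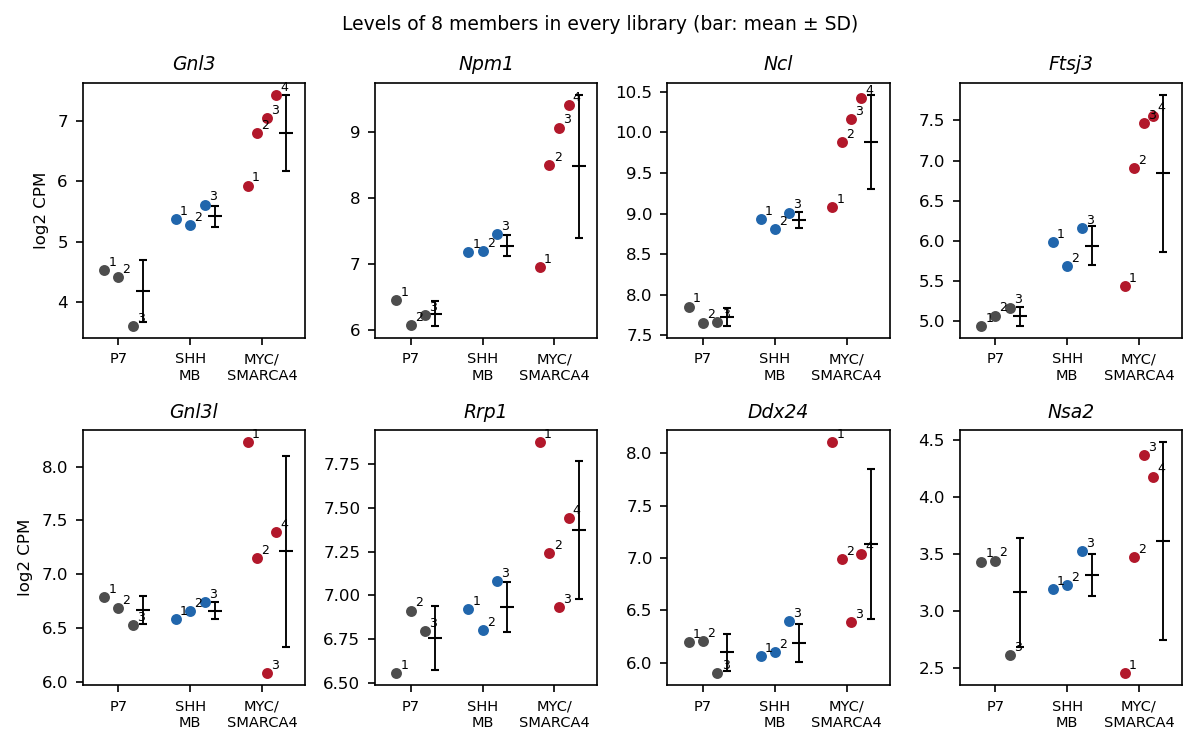
Levels (log2 CPM) of 8 members in P7 cerebella, SHH MB and MYC/SMARCA4 tumors, each point 1 library with its number and the bars showing mean ± SD. Gnl3, Npm1, Ncl and Ftsj3 have their highest values in tumors 2 to 4, while Gnl3l, Rrp1 and Ddx24 have their highest value in tumor 1.

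MYC/SMARCA4 tumors were next compared with SHH MB, a mouse model of another medulloblastoma subgroup without transduced Myc. Tumors were 79 to 112 days old and SHH MB were labelled as 7 days old, so age and group cannot be told apart. In this pair only the tumors were transplants with floxed Smarca4 alleles, which cannot be told apart from Myc either. The log2 fold change was above 0 for 42 of 43 members, with a median of 0.91 (all genes 0.01), and 5 members were called higher and 0 lower, where 2.43% of all genes were called higher. They were Gnl3 (1.47 ± 0.36, adjusted p = 0.0349), Bop1 (1.26 ± 0.32, adjusted p = 0.0435), Wdr74 (1.23 ± 0.27, adjusted p = 0.0237), Ddx27 (1.19 ± 0.30, adjusted p = 0.0418) and Ebna1bp2 (1.12 ± 0.26, adjusted p = 0.0316). For Ebna1bp2, a scaffold protein of the nucleolus whose gene overlaps Cfap57 on the opposite strand, the tumors lay at 5.95, 6.39, 6.70 and 6.88 log2 CPM, the SHH MB at 5.26, 5.40 and 5.55 and the P7 cerebella at 4.87, 4.74 and 4.73, with no overlap between groups. Npm1 and Nop16 had log2 fold changes as large (1.45 ± 0.45, adjusted p = 0.091 and 1.36 ± 0.38, adjusted p = 0.0633) with more spread. The smallest values were -0.01 for Rpf1, 0.28 for Nvl and 0.36 for Rpf2. In 12 members every tumor lay above every SHH MB (7.83% of all genes). Without tumor 1, 29 members were called higher (5.91% of all genes), the median was 1.04, and in 34 members tumors 2 to 4 all lay above the SHH MB (13.6% of all genes). Without tumor 4, or without any single P7 cerebellum or SHH MB, 0 members were called, without tumor 2 it was 1 and without tumor 3 it was 9. Over all genes, 727 were called higher with all libraries, 626 without tumor 4, 385 without tumor 2 and 2750 without tumor 3. This number was 315 to 369 without a single P7 cerebellum and 54 to 61 without a single SHH MB. At an unadjusted p under 0.05, 30 members were higher with all libraries, as were 12.7% of all genes.

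SHH MB and P7 cerebella were compared as the pair without transduced Myc. The log2 fold change was above 0 for 42 of 43 members with a median of 0.61 (all genes -0.09), and the largest values were those of Gnl3 (1.20 ± 0.37, adjusted p = 0.349), Ncl (1.19 ± 0.36, adjusted p = 0.335) and Rrp1b (1.06 ± 0.41, adjusted p = 0.47). The smallest were those of Gnl3l (-0.01), Ddx24 (0.09) and Nsa2 (0.11). In edgeR with all libraries 0 of 43 were called, where 0.177% of all genes were called higher, and DESeq2 called 2 and limma on the deposited log2 values 0. Over all genes, edgeR called 53 higher, DESeq2 337 and limma 62. At an unadjusted p under 0.05, 14 members were higher, as were 5.16% of all genes. Without the tumors in the fit, 30 members were called higher (13.4% of all genes), and with group weights (limma voom) it was 22 (8.99% of all genes). In 32 members every SHH MB lay above every P7 cerebellum (17.8% of all genes). The median SD of the members was 0.59 log2 CPM in tumors, 0.18 in P7 cerebella and 0.15 in SHH MB. By group means, 41 of 43 members were lowest in P7 cerebella, intermediate in SHH MB and highest in tumors. The share of all genes with this order was not computed. The 3 comparisons share libraries and are not independent of each other.

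**Figure D3:**
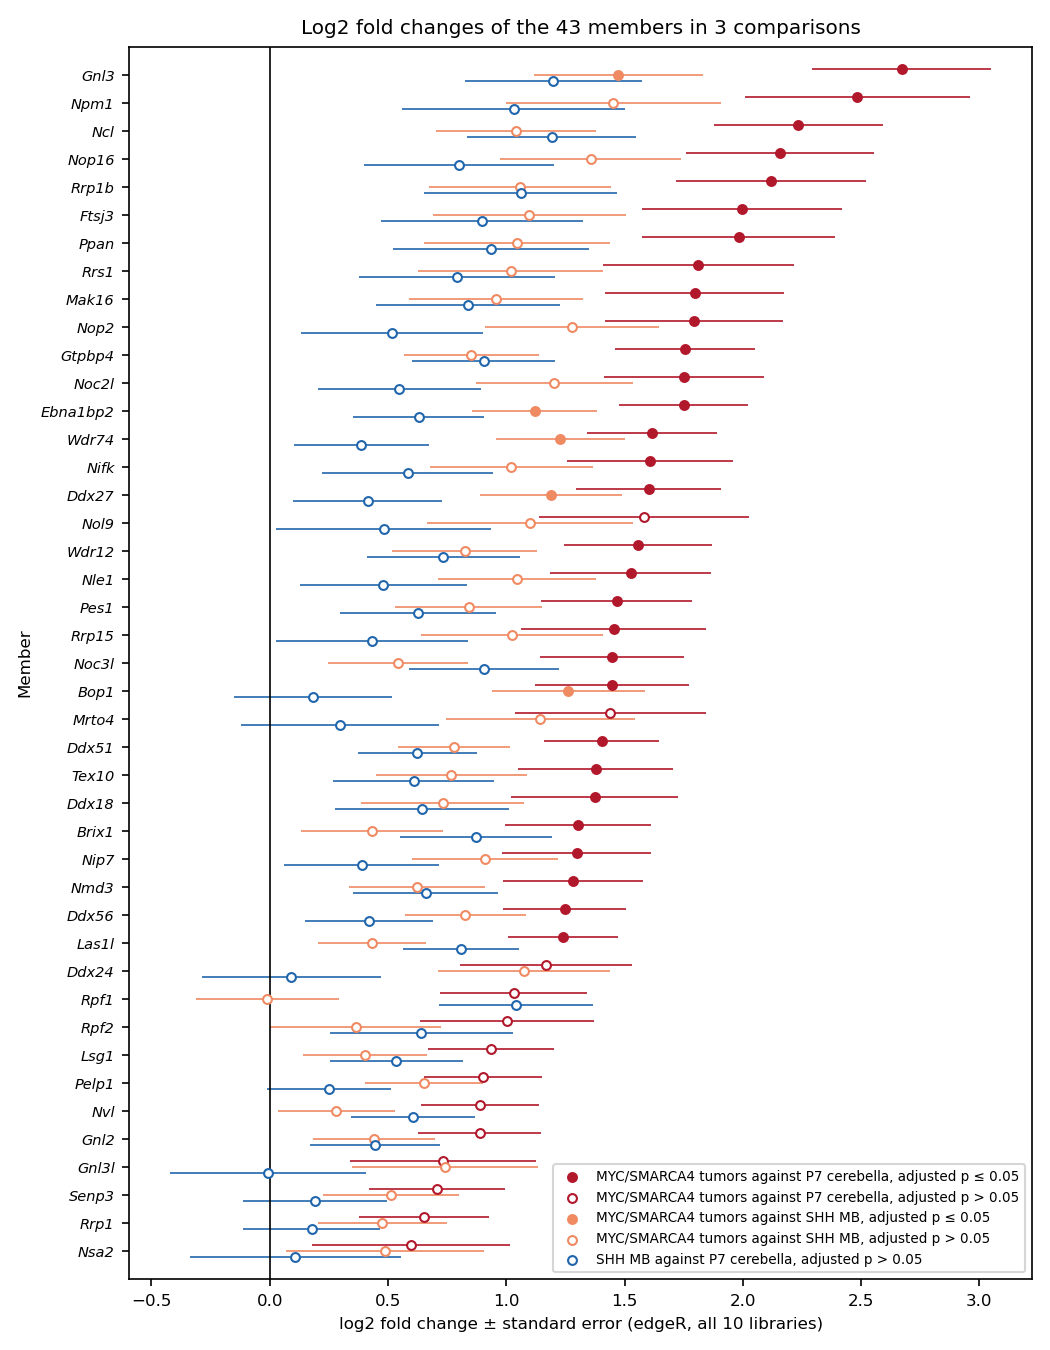
Log2 fold change ± standard error of the 43 members in the 3 comparisons (edgeR, 10 libraries), with filled points for an adjusted p of at most 0.05. All points for tumors against P7 cerebella lie above 0, 30 of them filled, and those for tumors against SHH MB and SHH MB against P7 cerebella lie lower for nearly all members.

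The single tumors differed from each other in nearly all members. The median difference of the 43 members from their P7 mean was 0.63 log2 CPM in tumor 1, 1.42 in tumors 2 and 3 and 1.97 in tumor 4, compared with 0.56, 0.58 and 0.70 in SHH MB 1 to 3. In these TMM-scaled values tumor 1 was near SHH MB by its median. Single members went both ways, with 17 above every SHH MB, 18 below every SHH MB and 8 within their range. The shares of all genes for such counts of 1 library were not computed. Tumor 1 was the lowest tumor for 33 members and tumor 3 for 9, and tumor 4 was the highest for 38. How often each tumor was lowest or highest over all genes was not computed. Tumor 1 was the highest for 4 members, Gnl3l, Ddx24, Rrp1 and Las1l, and all but Las1l were not called against P7 cerebella. Unlike the medians of the members, Myc on the same scale had tumor 3 above tumor 4 (10.63 and 9.99 log2 CPM), tumor 2 (8.52) and tumor 1 (7.25). The share of all counts that fell on members was 0.181%, 0.324%, 0.555% and 0.516% for tumors 1 to 4, 0.157% to 0.164% in P7 cerebella and 0.228% to 0.245% in SHH MB. These shares use no TMM factors. They have the tumors in the order of Myc and tumor 1 below every SHH MB. The TMM factors of tumors 1 to 4 were 0.62, 0.80, 1.28 and 0.88, so the order of tumors depends on the scaling. Tumors 2, 3 and 4 exceeded every P7 cerebellum in 43, 41 and 43 members, and tumor 1 in 38. For these counts too the shares of all genes were not computed. With 4 tumors no correlation with Myc was computed.

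**Figure D4:**
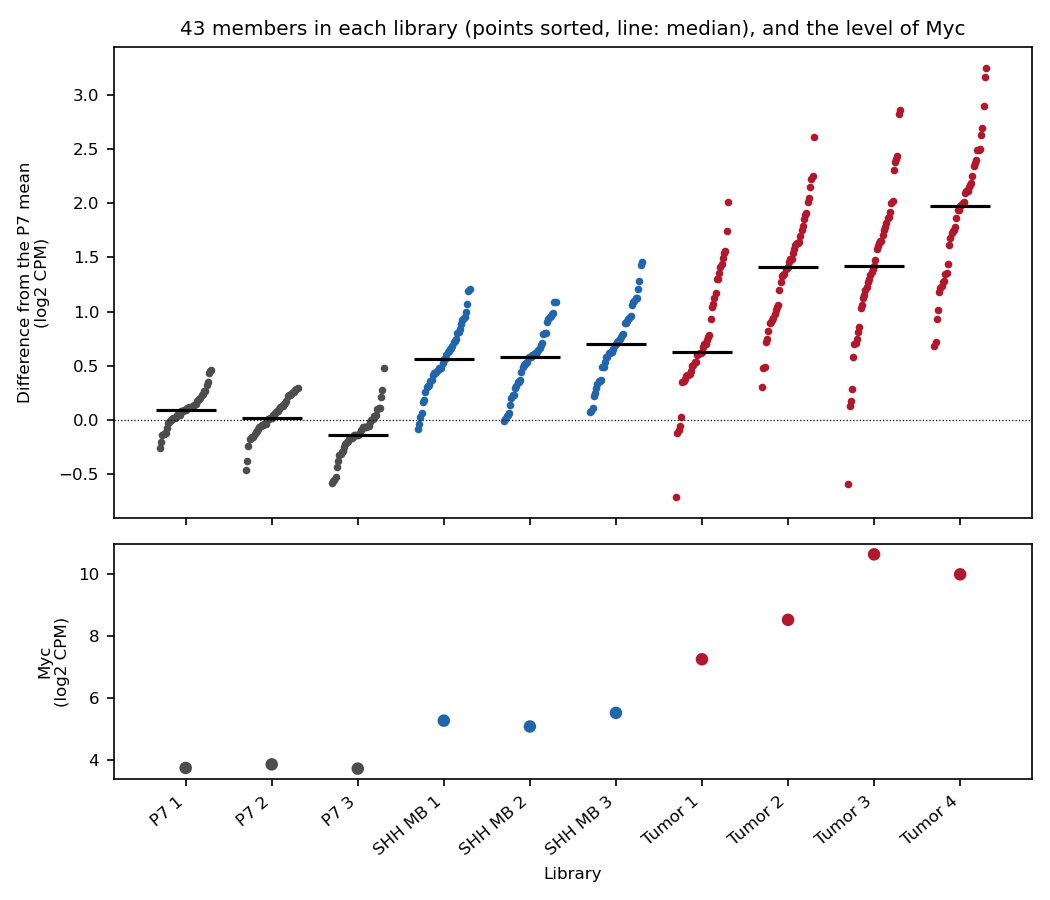
Upper panel, difference of the 43 members from their P7 mean (log2 CPM) in each library, with points sorted by value and a line at the median. Lower panel, Myc (log2 CPM) in the same libraries. The median is 0.63 in tumor 1 and 1.97 in tumor 4, and Myc is highest in tumor 3.

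Other genes of large subunit assembly and pre-rRNA processing were examined next to the members, from a list of 39 genes. Against P7 cerebella, all 39 had a log2 fold change above 0, 17 were called higher (3.99% of all genes) and 0 lower, and the median was 0.97. The count of 17 was 29 without tumor 1, 9 without tumor 2, 4 without tumor 4, 0 without any single P7 cerebellum and 8 to 10 without a single SHH MB. It was also 0 without TMM factors, in the fit of only the 2 groups and with the replicate block. Over all genes, 1194 were called higher as reported, 3323 without tumor 1, 528 without tumor 2 and 535 without tumor 4. This number was 32 to 73 without a single P7 cerebellum and 432 to 477 without a single SHH MB. It was 307 without TMM factors, 58 in the fit of only the 2 groups and 165 with the replicate block. The largest values were those of Mybbp1a, a nucleolar MYB-binding protein (2.16 ± 0.44, adjusted p = 0.017), the RNA helicase Ddx21 (2.16 ± 0.49, adjusted p = 0.025), the ATPase Mdn1 (2.02 ± 0.41, adjusted p = 0.018), Sdad1 (1.79 ± 0.36, adjusted p = 0.016) and Zfp593 (1.74 ± 0.45, adjusted p = 0.041). The smallest were those of Efl1, a cytoplasmic GTPase of late maturation (0.14), the exosome cofactor C1d (0.24) and Rexo4 (0.43). Against SHH MB, 36 of 39 were above 0 and 2 were called higher, Tma16 and Wdr18 (2.43% of all genes), with a median of 0.60. That count was 16 without tumor 1, 1 without tumor 2, 6 without tumor 3 and 0 without any other single library. Over all genes it was 1766 without tumor 1, 385 without tumor 2, 2750 without tumor 3 and 54 to 626 without any other single library. Between SHH MB and P7 cerebella, 35 of 39 were above 0, 0 were called (0.177% of all genes) and the median was 0.46. There the count was 22 in the fit of only these groups, 14 with group weights and 2 without tumor 1. Over all genes it was 3886, 2692 and 687 in the same order.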

How the data were processed

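RNA from FFPE punches was depleted of rRNA and sequenced by the authors as single-end total RNA libraries. Per the labels and the study's methods, reads were trimmed with Trimmomatic, aligned to GRCm39 with STAR 2.7.8a and counted with featureCounts 2.0.1. The deposited files hold raw counts per gene and library, and the authors also deposited log2 values after the variance-stabilizing transformation of DESeq2. The annotation and strand setting of counting are not given in the sources used here. Exons of 27 of the 43 members overlap the span of a gene on the opposite strand, with its introns included. Overlap of exons with exons was not counted.

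Counts of all 10 libraries entered 1 quasi-likelihood fit in edgeR 4.0.16 (R 4.3.3), with group means, TMM factors and filterByExpr. P-values were adjusted by the Benjamini-Hochberg method over 29952 genes, and an adjusted p of at most 0.05 was a call. Fold changes are given with the SE, levels with the SD. No 2 libraries of a group agreed within sampling noise (chi-square per degree of freedom 4.29 to 124). The labels do not say how samples of a group relate beyond their number. The p-values use 1 spread per gene, pooled within groups over all 10 libraries, and not the spread of only the 2 groups compared. The spread of the members differed between groups, with a median SD of 0.59 log2 CPM in tumors, 0.18 in P7 cerebella and 0.15 in SHH MB. RPKM were computed from CPM with TMM-scaled library sizes, without a prior count, and the union of exons (GENCODE, GRCm39). The script was tested on simulated data, where edgeR found 73% of 200 genes that were shifted by 2 on the log2 scale in tumors against P7 cerebella (28028 genes tested), 68.5% against SHH MB (28082 genes) and 55% in SHH MB against P7 cerebella (28028 genes). The shifted genes were drawn from expressed genes without the highest dispersions. Each simulated gene had the same dispersion in all groups, unlike the members, so these rates check the script and need not hold for the members.

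All 43 members may be named. Values in every library are given for the 3 largest and 3 smallest log2 fold changes of each comparison and the largest and smallest of each role against P7 cerebella. Of the other list the 5 largest and 3 smallest are named, and the library values of Ebna1bp2 and Noc3l are given after their values were seen. The members and lists were chosen with earlier results of these data known. Alternatives were other scalings, filters, tools and sets of libraries. Weights by group and canonical transcript length were added after seeing the data. Markers are hand-written lists.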

Additional observations from a re-analysis of the deposited data

Results flagged for a closer look

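Noc3l, a partner of Noc2l on nucleolar particles, lay at 4.80 log2 CPM in tumor 1 and at 5.80, 5.91 and 6.01 in tumors 2, 3 and 4. The gap of tumor 1 to the nearest tumor was 0.833 of the whole range of the tumors, above the 95% limit of Dixon's test for 4 samples. Of the 43 members tested in this way 1 exceeded the limit, and chance alone gives about 1 in 20.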

How the results depend on the processing

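The 43 members were never called lower under any alternative, and all 43 had a log2 fold change above 0 against P7 cerebella in every setting. The number called higher, 30 against P7 cerebella, depended on the setting, and was 9 without TMM factors, 1 in a fit of only the 2 groups, and 5 or 1 at an adjusted p up to 0.01 with log2 fold changes from 1.5 or 2.5 upwards. Calls over all genes moved as well, with 1194 higher as reported, 307 without TMM factors and 58 in the fit of only the 2 groups. They were not counted at the stricter thresholds. Against SHH MB, where 5 members were called, the number was 0 without TMM factors, with upper-quartile factors, with only the 2 groups and with either stricter threshold, 2 without a filter, 14 with DESeq2, 1 with limma on the deposited log2 values and 10 with group weights. Over all genes, 727 were called higher as reported, 431 without TMM factors, 476 with upper-quartile factors and 88 with only the 2 groups. It was 807 without a filter, 2016 with DESeq2, 387 with limma and 1019 with group weights. Between SHH MB and P7 cerebella, where 0 members were called, the number was 2 with DESeq2, 30 with only the 2 groups and 22 with group weights, and the median log2 fold change was 0.50 without TMM factors. Over all genes, 53 were called higher as reported, 337 with DESeq2, 3886 with only the 2 groups and 2692 with group weights. The cause of these changes was not tested.

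Leaving out 1 library at a time gave 1 to 39 members called higher against P7 cerebella (median log2 fold change 1.18 to 1.66), 0 to 29 against SHH MB (0.68 to 1.04) and 0 to 8 between SHH MB and P7 cerebella (0.58 to 0.67). Over all genes, 32 to 3381 were called higher against P7 cerebella, 54 to 2750 against SHH MB and 0 to 687 between SHH MB and P7 cerebella. Correlations of deviations between libraries with the same replicate number ranged from -0.27 to 0.16, and between libraries with different numbers from -0.24 to 0.30. With 3 or 4 libraries a group, these values cannot show whether the numbers pair the libraries. With a replicate block, 3 members were called higher against P7 cerebella, 0 against SHH MB and 0 between SHH MB and P7 cerebella. Over all genes it was 165, 231 and 16 in the same order. The median of all genes against P7 cerebella was -0.42 without TMM factors and -0.28 with upper-quartile factors, and the median of the members stood 1.58 and 1.53 above it, compared with 1.498 as reported. Of the genes called against P7 cerebella, 20.8% were higher without TMM factors and 63.7% as reported.

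Values near 0 changed sign. Rpf1 against SHH MB was 0.0116 with limma and -0.20 to 0.21 without single libraries. Gnl3l between SHH MB and P7 cerebella was 0.0299 with RLE factors, 0.0423 without a filter, 0.0396 with DESeq2, 0.0243 with limma, 0.0138 with only the 2 groups, 0.0272 with the replicate block and -0.0652 to 0.0634 without single libraries. Ddx24 was -0.0211 without TMM factors, and Nsa2 was -0.11 to 0.27 without single libraries.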
